A study of Rattus norvegicus with 50 samples.

Results

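Cortex and medulla of the lean rat kidney were compared in 10 of the 50 RNA-sequencing libraries of the series. These were all libraries titled as lean vehicle kidney, 5 from cortex and 5 from medulla. Both groups came from lean rats of the ZSF1 strain that received vehicle and no drug, with a labelled treatment time of 28 weeks. The labels also give an age of 20 weeks, which is less than that treatment time, and the sources used here do not resolve this. The other libraries came from obese ZSF1 rats, which become diabetic and develop kidney disease, given enalapril (an inhibitor of angiotensin-converting enzyme) at 10 mpk, MK-8722 (an activator of AMP-activated protein kinase) at 1 or 10 mpk, or vehicle. The labels do not say which cortex and medulla libraries came from the same animal.

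The kidney cortex holds the glomeruli, which filter the blood, and the convoluted parts of the proximal and distal tubules, which reclaim most of the filtrate. The medulla holds the loops of Henle, the collecting ducts and the vasa recta, and its interstitium is kept at a high salt and urea concentration that allows urine to be concentrated. Straight proximal tubules, thick ascending limbs and collecting ducts cross the border, so the regions share part of their cell types. RNA from a tissue piece is a mixture of all its cells. A lower level of a gene can therefore come from fewer cells of a type or from less RNA per cell, and these cannot be told apart here.

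Levels are given as FPKM, the fragments assigned to a gene per kilobase of its transcript and scaled to the fragments of the library, as deposited. Genes appear as Ensembl IDs. The table pairs no ID with a name and 0 of its 32545 IDs matched the gene table used here, so no name or role is given. The tissue labels were for the same reason not checked against marker genes of glomeruli, tubule segments or blood. A gene was tested when it reached 1 FPKM in 5 or more of the 10 libraries, which 12452 genes did. Tests were run on log2(FPKM + 0.5), where the added 0.5 makes fold changes of low genes smaller than they are. Fold changes are cortex over medulla. A gene was called when its p, adjusted by the Benjamini-Hochberg method over the whole table of tested genes, was under 0.05.

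The 10 libraries separated by tissue. Across the tested genes, log2 levels correlated with r of 0.979 to 0.988 between cortex libraries and 0.979 to 0.984 between medulla libraries, against 0.904 to 0.956 between tissues (genes are not independent replicates). Among the pairs across tissues, cortex replicate 2 and medulla replicate 7 were the nearest to the other tissue. Relative depth, read from the step size of low values, was 1.22 to 1.38 in cortex and 0.960 to 1.15 in medulla, so the tissues did not overlap (exact two-sided permutation test, p = 0.00794, adjusted p = 0.0106 over 4 measures, the smallest p that 5 against 5 libraries allow). The 6 most abundant IDs took 59.1% to 63.4% of the summed FPKM in cortex and 60.0% to 63.0% in medulla, which overlap (exact permutation test, p = 0.722).

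On the deposited values 51.5% of the tested genes differed between the tissues, most of them with the higher level in medulla. In cortex 1896 genes were higher (15.2% of those tested) and 4512 were lower (36.2%) than in medulla (limma). The tested genes as a whole were shifted, with a median log2 fold change of -0.14. Median-ratio rescaling, which divides a library by the median of its ratios to each gene's geometric mean over the libraries, moved this median to -0.01. On these rescaled values 2902 genes were higher in cortex (23.3%) and 2828 lower (22.7%). Rescaling sets the median near 0 by its construction, so near even numbers in each direction are partly built in. All 1896 rises were also called after rescaling, as were 2828 of the 4512 falls. The remaining 1684 falls were not called, 1006 rises were added, and 0 genes changed direction between the scales. Since rescaling moved the fold changes as a whole towards cortex, the agreement on rises was partly built in too. With relative depth as a term, chosen after the data were seen, 876 genes were higher and 1838 lower in cortex.

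**Figure D1:**
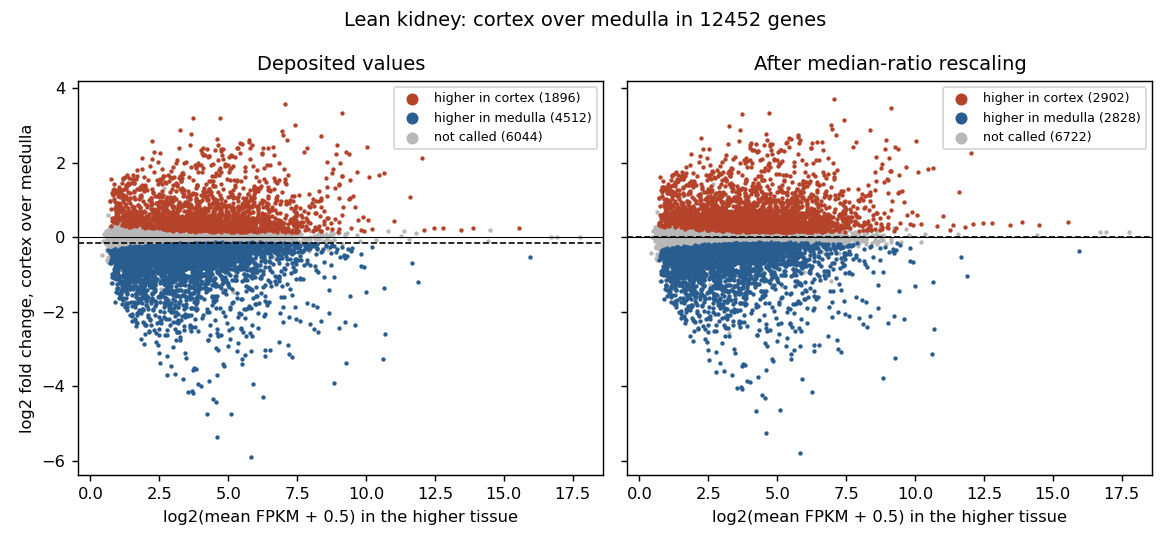
Each point is 1 of the 12452 tested genes, with the log2 of its mean FPKM (plus 0.5) in the higher tissue on the x axis and its log2 fold change of cortex over medulla on the y axis, on deposited values (left) and after rescaling (right). The dashed line is the median, at -0.14 as deposited and -0.01 after rescaling. Points reach further down than up, to a log2 fold change of -5.90 against 3.58 on the deposited values.

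Values of all 5 cortex libraries lay above all 5 medulla libraries for 1458 genes and below them for 3227, together 37.6% of those tested, beside 51.5% that were called. After rescaling the numbers were 2261 and 2121, or 35.2%, beside 46.0% that were called. Among the 5 cortex libraries, replicates 1 and 7 carry library numbers in a separate higher range, and no medulla library does. In the lower range alone 1623 genes were higher and 3586 lower in cortex, and with the range as a term 1641 and 3615. Leaving out any 1 of the 10 libraries gave 1724 to 1874 higher and 4051 to 4577 lower genes. In every one of these fits 1627 genes stayed higher and 3715 lower on the deposited values, and 2469 and 2342 after rescaling.

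Large differences were more often medullary. At least 2-fold differences numbered 398 with the higher level in cortex and 764 with the higher level in medulla. At least 4-fold there were 68 and 175, and at least 8-fold 5 and 43. Rescaling narrowed the gap without closing it, at 484 and 612, 91 and 146, and 6 and 36. The gap at 2-fold, for calls on both scales, depended on the mean FPKM in the higher tissue. Under 5 FPKM 95 genes were higher in cortex and 261 in medulla, and from 5 to 20 FPKM 119 and 298. From 20 to 100 FPKM they numbered 122 and 145, and at 100 FPKM and over 62 and 49. With both libraries nearest the other tissue left out, the numbers at 4-fold were 89 and 210. They were 80 and 170 with relative depth as a term, and 107 and 269 with a pseudocount of 0.1.

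**Figure D2:**
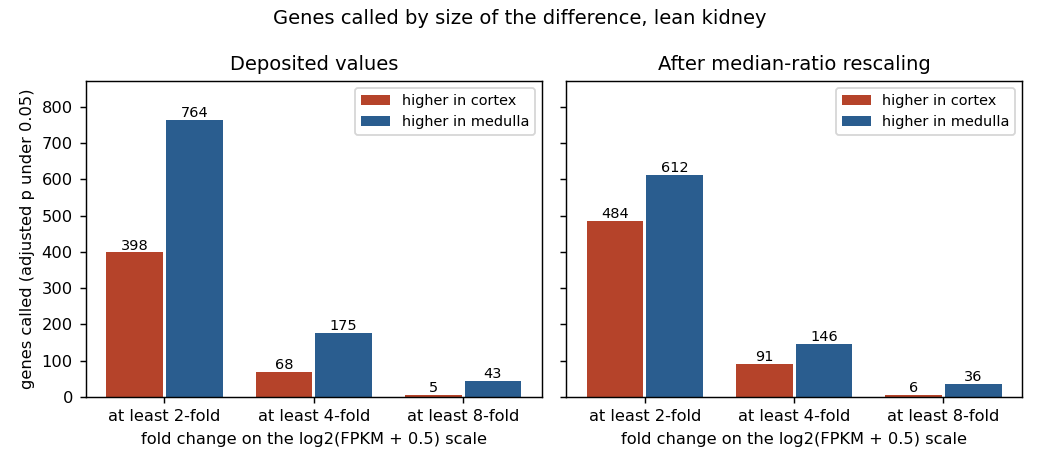
Bars count the genes called at each minimum size of the difference on the log2(FPKM + 0.5) scale, on deposited values (left) and after rescaling (right), with genes higher in cortex beside genes higher in medulla. At 8-fold the bars stand at 5 and 43 as deposited and at 6 and 36 after rescaling.

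Among the genes with large differences, more of those higher in medulla were near absent from the other tissue. Among calls on both scales with at least a 4-fold difference, 46 of 174 medulla-higher genes stayed under 1 FPKM in all 5 cortex libraries. Of the 68 cortex-higher genes, 2 stayed under 1 FPKM in all 5 medulla libraries. The medulla kept a median of 18.5% of the cortex FPKM for the 68 genes, and the cortex kept a median of 13.2% of the medulla FPKM for the 174. The groups also differed in level, with a median of 34.3 FPKM in cortex for the cortex-higher genes and 12.6 FPKM in medulla for the medulla-higher genes, so the 1 FPKM limit is reached sooner by the medulla-higher group. A gene under 1 FPKM in all 5 libraries of a tissue passed the filter only through the other tissue. The share of such genes over all tested genes was not counted. These genes were chosen by the same libraries, and the values are a description.

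A pair of IDs had the largest cortical excess by the naming rule, which asked for at least 5 FPKM in the higher tissue, calls on both scales and no overlap between tissues. ENSRNOG00000007456 had 134, 106, 130, 154 and 143 FPKM in the cortex libraries (replicates 1, 2, 3, 6 and 7). In the medulla libraries (replicates 1, 3, 5, 6 and 7) it had 14.6, 4.42, 12.5, 6.68 and 24.1 FPKM. The lowest cortex library thus lay above the highest medulla library, which was replicate 7. The log2 fold change was 3.58 ± 0.408 (SE, limma, adjusted p = 9.65e-05), and 3.72 after rescaling. Without medulla replicate 7 it was 3.86, and without medulla replicate 3, the lowest medulla library, it was 3.28.

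ENSRNOG00000032857 had 551, 497, 564, 653 and 543 FPKM in cortex and 68.9, 25.2, 51.7, 48.0 and 114 FPKM in medulla, in the same order of replicates. Here too the tissues did not overlap, and medulla replicate 7 was the highest medulla library and replicate 3 the lowest, as for the previous ID. The log2 fold change was 3.34 ± 0.349 (SE, limma, adjusted p = 5.19e-05), or 3.48 after rescaling. Both IDs varied more between medulla libraries, with means of 12.4 ± 7.70 and 61.6 ± 33.4 FPKM, than between cortex libraries, with 133 ± 17.9 and 562 ± 57.1 FPKM (SD, n = 5), relative to their means.

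Medullary excess was led by a pair of IDs that were almost absent from cortex. ENSRNOG00000061376 had 0.692, 0.385, 0.707, 0.518 and 0 FPKM in cortex and 74.4, 59.6, 56.0, 53.7 and 35.3 FPKM in medulla. Medulla replicate 7 was again the library nearest to cortex. Its log2 fold change was -5.90 ± 0.268 (SE, limma, adjusted p = 5.63e-08), and -5.79 after rescaling.

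ENSRNOG00000056021 had 0.0766, 0.0853, 0.0782, 0 and 0.144 FPKM in cortex against 22.1, 31.6, 24.7, 22.6 and 16.5 FPKM in medulla. All cortex values were below 1 FPKM, and every medulla value was 16.5 FPKM or more. The log2 fold change was -5.35 ± 0.142 (SE, limma, adjusted p = 1.83e-11), or -5.27 after rescaling. An FPKM listed as 0 may be a failed estimate rather than the absence of reads. The calls of all 4 IDs held in each of the 23 alternatives run for them.

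**Figure D3:**
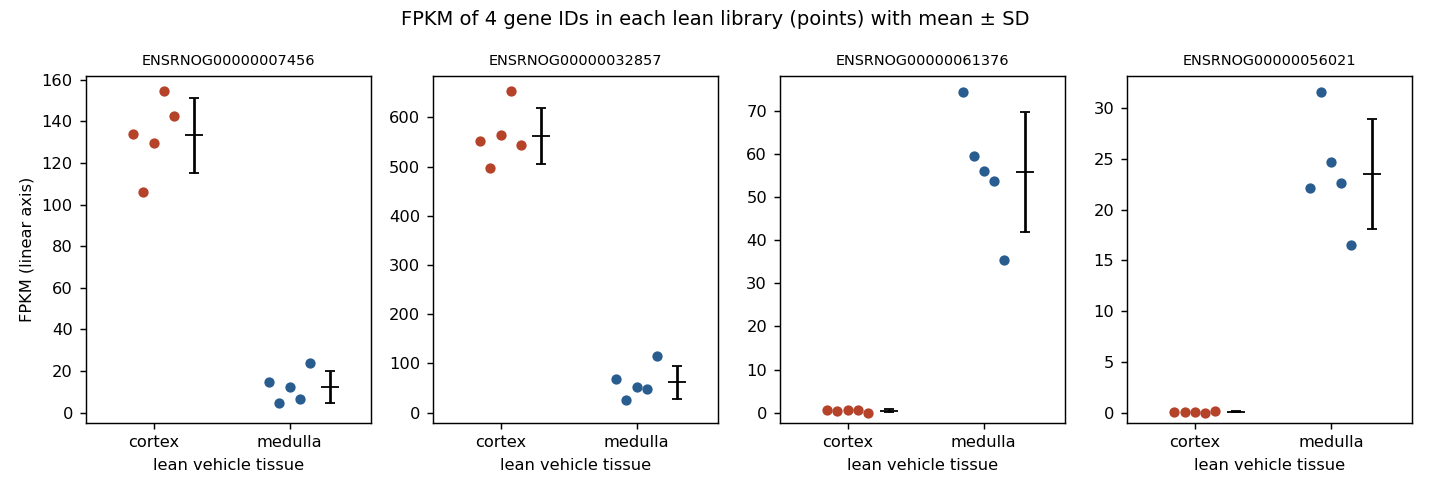
Points are the FPKM of single lean libraries on linear axes, ordered by replicate number within a tissue, with the mean ± SD (n = 5) beside them. Cortex lies above medulla without overlap for ENSRNOG00000007456 and ENSRNOG00000032857 and below it without overlap for ENSRNOG00000061376 and ENSRNOG00000056021.

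The share of genes called also depended on how abundant a gene was. Genes were grouped by their mean FPKM in the higher tissue, and the rescaled values are given since the shift of the deposited values touches all levels. Under 5 FPKM, 12.9% of 4010 genes were higher and 21.8% lower in cortex. From 5 to 20 FPKM the shares were 22.5% and 22.8% of 5416 genes, and from 20 to 100 FPKM 36.9% and 24.0% of 2459. At 100 FPKM and over, 45.7% of 567 genes were higher in cortex and 23.1% lower. The share that was higher in cortex thus rose with abundance, while the share that was lower stayed between 21.8% and 24.0%.

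The number of IDs at 1 FPKM or more was lower in cortex. It was 12022 ± 54.2 in cortex and 12540 ± 77.8 in medulla libraries (SD, n = 5), without overlap (exact two-sided permutation test, p = 0.00794, adjusted p = 0.0106 over 4 measures). After rescaling it was 12107 ± 35.8 in cortex and 12430 ± 34.6 in medulla, again without overlap. Relative depth was higher in cortex, where fewer IDs were counted. Depth did not overlap between the tissues, so depth and tissue cannot be told apart in these counts.

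The genes called at least 2-fold different on both scales, 398 higher in cortex and 753 higher in medulla, took different parts of the libraries. Outside the 6 most abundant IDs, the 398 took 10.5% ± 0.455 of the summed FPKM in cortex and 3.46% ± 0.464 in medulla (SD, n = 5). The 753 took 2.63% ± 0.528 in cortex and 8.69% ± 0.407 in medulla. The mean share of the cortical group in medulla was above that of the medullary group in cortex, but single libraries overlapped. They spanned 2.94% to 4.21% and 2.07% to 3.36%. The groups differ in number of genes, and these sets were chosen in the same libraries. In obese vehicle rats, whose libraries took no part in that choice, the 398 genes took 8.69% ± 1.21 in cortex and 3.42% ± 0.0432 in medulla, and the 753 took 3.18% ± 0.777 in cortex and 6.72% ± 0.399 in medulla.

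How far each lean library resembled either tissue was read from genes chosen without the lean libraries. These were 66 IDs at least 4-fold higher and 87 IDs at least 4-fold lower in cortex than in medulla of obese vehicle rats, called on both scales. The mean log2(FPKM + 0.5) of the 87 was subtracted from that of the 66. The result was scaled to 0 at the mean of obese vehicle medulla and 1 at the mean of obese vehicle cortex. Lean cortex lay at 1.07, 0.986, 1.12, 1.10 and 1.17 (replicates 1, 2, 3, 6 and 7), and lean medulla at 0.168, 0.0481, 0.150, 0.161 and 0.329 (replicates 1, 3, 5, 6 and 7). Cortex replicate 2 was the lowest of its group and medulla replicate 7 the highest of its own, and no lean library lay between 0.329 and 0.986.

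In medulla replicate 7 the cortical IDs were higher and the medullary IDs lower than in the other medulla libraries, while in cortex replicate 2 the medullary IDs stood further off than the cortical ones. For the 66 cortical IDs the mean log2 level was 3.81 in medulla replicate 7 and 2.90 to 3.33 in the other medulla libraries, and 5.44 in cortex replicate 2 and 5.50 to 5.62 in the other cortex libraries. For the 87 medullary IDs it was 3.51 in medulla replicate 7 and 3.76 to 4.03 in the other medulla libraries, and 1.78 in cortex replicate 2 and 1.04 to 1.43 in the other cortex libraries. Lean medulla ranged from 0.0481 to 0.329, against -0.0397 to 0.0371 in obese vehicle medulla. The IDs were chosen for large differences in the obese vehicle libraries, so medulla libraries of other groups can lie above 0 from that choice alone. Medulla of drug-treated obese rats ranged from -0.0614 to 0.220 with enalapril, and with MK-8722 from -0.106 to 0.179 at 1 mpk and from -0.245 to 0.143 at 10 mpk. Without cortex replicate 2 and medulla replicate 7, left out together after the data were seen, 1749 genes were higher and 4468 lower in lean cortex on the deposited values.

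**Figure D4:**
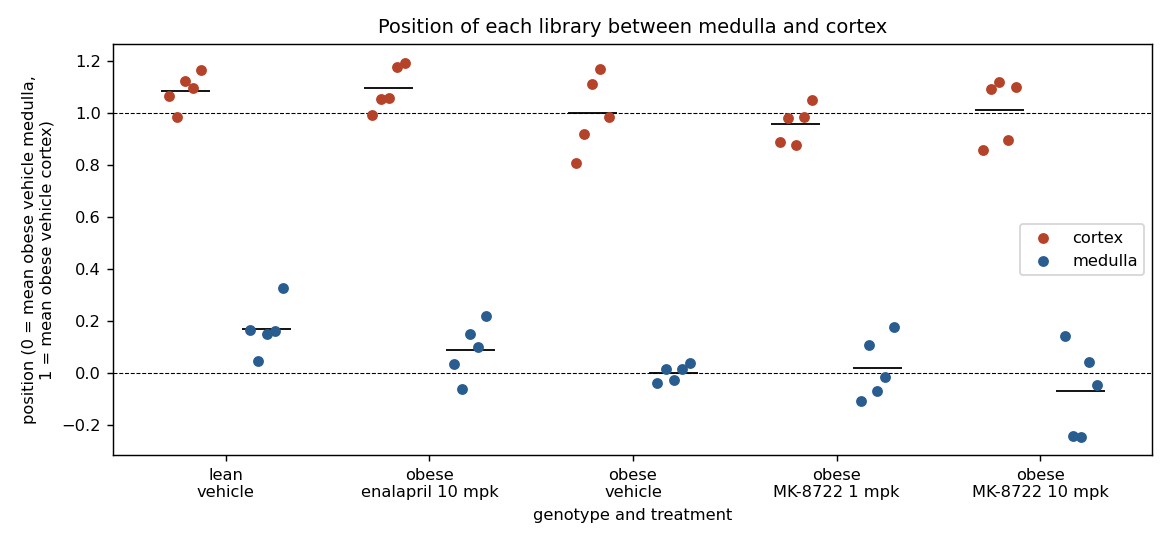
Points are single libraries and short lines group means (n = 5), with cortex left of medulla for each genotype and treatment; the y axis is the position between obese vehicle medulla (0) and obese vehicle cortex (1) and has no unit. Lean cortex lies between 0.986 and 1.17 and lean medulla between 0.0481 and 0.329.

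The lean tissue differences were then looked up in the obese rats, which share no library with them. Of the 398 genes at least 2-fold higher in lean cortex, 394 were also higher in cortex in obese vehicle rats and 335 were called there. Of the 753 genes at least 2-fold lower, 743 were lower in obese vehicle cortex and 608 were called. The background there was 10.9% of 13473 genes called higher and 29.1% called lower, together 40.0%. The median log2 fold change was 1.40 in lean and 1.20 in obese vehicle rats for the genes higher in lean cortex and -1.46 in lean and -1.04 in obese vehicle rats for the genes lower in it. Since the genes were chosen for a large lean value, a smaller value in other libraries is built into this choice.

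Drug-treated obese rats gave like numbers. With enalapril, 397 of the 398 and 748 of the 753 genes kept their direction. With MK-8722 the counts were 394 and 740 at 1 mpk and 391 and 747 at 10 mpk. With enalapril 368 and 678 were called, beside 1354 higher and 5535 lower calls among 13094 tested genes. With MK-8722 at 1 mpk 346 and 596 were called, beside 1464 and 2949 among 13493. At 10 mpk 335 and 639 were called, beside 1172 and 3447 among 13146. The share of all tested genes lying in each direction was not counted. Deposited values were used, which in obese vehicle rats were shifted towards medulla (median log2 fold change -0.19). Over all lean calls of any size, 58.7% of the 1896 higher and 56.1% of the 4512 lower genes were called in the same direction in obese vehicle rats. Seen from the obese vehicle calls, 75.8% of 1469 higher and 64.5% of 3926 lower genes were also lean calls in the same direction, beside 15.2% and 36.2% of genes called in the lean comparison, and 47 genes were called in opposite directions. After rescaling 65.0% of the 2902 higher and 52.3% of the 2828 lower lean calls were shared and 56 genes were opposite, with 19.5% of genes called higher and 18.1% lower in obese vehicle rats.

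The 4 IDs named in the lean comparison stayed apart between the tissues in all 4 groups of obese rats. ENSRNOG00000007456 averaged 105 ± 15.5 FPKM in obese vehicle cortex and 6.39 ± 1.24 FPKM in obese vehicle medulla (SD, n = 5 each). Its lean and obese vehicle log2 fold changes, 3.58 and 3.95, differed by -0.37 (limma interaction, adjusted p = 0.701). ENSRNOG00000032857 averaged 287 ± 64.8 FPKM in obese vehicle cortex and 31.6 ± 5.98 FPKM in obese vehicle medulla. Its fold changes, 3.34 in lean and 3.16 in obese vehicle rats, differed by 0.18 (limma interaction, adjusted p = 0.852), although its cortex level was 562 FPKM in lean rats. Its cortex level spread widest with MK-8722 at 10 mpk, from 476 to 1308 FPKM, beside 13.5 to 231 FPKM in the medulla of that group.

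The IDs of the medulla kept the same pattern. ENSRNOG00000061376 ranged from 0.437 to 3.67 FPKM in obese vehicle cortex and from 52.7 to 114 FPKM in obese vehicle medulla. In the drug-treated groups it reached at most 1.19 FPKM in cortex and at least 40.6 FPKM in medulla. ENSRNOG00000056021 ranged from 0 to 0.0895 FPKM in obese vehicle cortex and from 19.7 to 28.7 FPKM in obese vehicle medulla. Its highest cortex value in any drug-treated library was 0.214 FPKM. The interaction was -0.46 for ENSRNOG00000061376 (limma, adjusted p = 0.705) and 0.15 for ENSRNOG00000056021 (adjusted p = 0.726), which does not show that the genotypes are alike.

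The largest differences were counted in the same way in obese vehicle rats, and the difference between genotypes in these counts was not tested. At least 8-fold, 5 genes were higher in cortex and 43 higher in medulla in lean rats, against 13 and 12 in obese vehicle rats. After rescaling the numbers were 6 and 36 in lean and 16 and 9 in obese vehicle rats.

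A direct test of the difference, the interaction of tissue with genotype over the 20 vehicle libraries, called 845 of 13821 genes (6.11%, limma). Of these, 353 (2.55%) had a log2 fold change of cortex over medulla that was more positive in lean and 492 (3.56%) one that was more negative in lean. Rescaled values gave 406 (2.94%) and 736 (5.33%), together 8.26%, and 317 and 465 genes were called in the same direction on both scales. Among the 353 genes, lean calls were higher in cortex for 208 and in medulla for 26, with 73 not called and 46 not tested. Among the 492, lean calls were higher in medulla for 342 and in cortex for 67, with 78 not called and 5 not tested. Over all genes of the lean comparison 15.2% were called higher and 36.2% lower in cortex. The interaction contains the lean difference of the same libraries, so lean calls in the matching direction are partly built in. In the lower range of library numbers alone, chosen after the data were seen, 163 and 318 genes were called. The excess of genes more negative in lean did not hold in every fit. Without obese vehicle cortex replicate 2 there were 443 more positive and 397 more negative genes.

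The IDs that follow were named for the 2 largest interaction values in each direction, so large values are built into this choice. ENSRNOG00000012181 was higher in medulla of lean rats and did not pass the test in obese vehicle rats. It had 7.13, 7.17, 7.18, 8.17 and 7.04 FPKM in lean cortex and 48.4, 51.7, 54.2, 53.1 and 37.6 FPKM in lean medulla. In obese vehicle rats it had 19.2, 21.8, 13.7, 12.5 and 26.2 FPKM in cortex (replicates 1, 2, 3, 5 and 6) and 21.4, 20.0, 24.1, 19.9 and 23.6 FPKM in medulla (replicates 3, 4, 5, 6 and 7). The lean tissues were apart, while the obese tissues overlapped. Its log2 fold change was -2.65 ± 0.0911 in lean (SE, limma, adjusted p = 1.42e-10) and -0.26 ± 0.176 in obese vehicle rats (adjusted p = 0.247). The fold changes differed by -2.39 ± 0.209 (adjusted p = 1.55e-06). In drug-treated obese rats its cortex and medulla means were 12.6 and 17.5 FPKM with enalapril. With MK-8722 they were 19.0 and 17.8 FPKM at 1 mpk and 10.9 and 25.8 FPKM at 10 mpk.

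ENSRNOG00000010635 was higher in cortex of lean rats. Lean cortex had 43.3, 37.0, 41.8, 40.5 and 52.4 FPKM and lean medulla 8.03, 7.10, 6.65, 9.01 and 12.3 FPKM, and the log2 fold change was 2.28 ± 0.148 (SE, limma, adjusted p = 1.54e-07). Obese vehicle cortex had 33.2, 33.0, 24.0, 29.0 and 24.7 FPKM and obese vehicle medulla 20.1, 27.2, 20.6, 26.7 and 38.4 FPKM. The ranges of the obese tissues overlapped, and their log2 fold change was 0.14 ± 0.167 (adjusted p = 0.526). The difference between genotypes was 2.14 ± 0.237 (adjusted p = 2.79e-05). In drug-treated obese rats the cortex and medulla means of this ID were 20.0 and 14.6 FPKM with enalapril. With MK-8722 they were 29.5 and 25.6 FPKM at 1 mpk and 35.4 and 13.7 FPKM at 10 mpk.

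ENSRNOG00000057928 had 1.05, 4.77, 0.496, 0.323 and 0 FPKM in lean cortex and 36.9, 40.2, 31.5, 28.4 and 32.7 FPKM in lean medulla. Obese vehicle cortex had 0.791, 1.13, 0.102, 0 and 0.119 FPKM and obese vehicle medulla 3.37, 1.34, 5.24, 1.58 and 1.15 FPKM. The medullary excess was present in both genotypes, with log2 fold changes of -4.75 ± 0.568 in lean (SE, limma, adjusted p = 1.32e-04) and -1.70 ± 0.418 in obese vehicle rats (adjusted p = 0.00808). They differed by -3.05 ± 0.729 (adjusted p = 0.0184), a call that was lost with a pseudocount of 0.1 (adjusted p = 0.171) and in the lower range of library numbers (adjusted p = 0.0587). Over all 27 alternatives its adjusted p lay between 0.00101 and 0.171. In drug-treated obese rats its cortex and medulla means were 0.319 and 5.03 FPKM with enalapril. With MK-8722 they were 0.295 and 1.93 FPKM at 1 mpk and 0.229 and 6.66 FPKM at 10 mpk.

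ENSRNOG00000008979 did not pass the lean comparison. It had 5.25, 6.79, 5.21, 7.64 and 3.84 FPKM in lean cortex and 5.71, 6.49, 5.08, 6.21 and 7.97 FPKM in lean medulla, which overlap (log2 fold change -0.14 ± 0.159 SE, limma, adjusted p = 0.485). In obese vehicle rats it had 10.2, 8.20, 7.34, 4.98 and 7.53 FPKM in cortex and 46.8, 73.1, 39.2, 67.6 and 108 FPKM in medulla. Obese vehicle medulla lay above the other 3 vehicle groups without overlap, and no such gap lay between those 3. The tissue difference in lean minus that in obese vehicle rats was 2.85 ± 0.330 (adjusted p = 7.42e-05). Its medulla level was also above its cortex level in the drug-treated obese groups. The cortex and medulla means were 5.94 and 30.6 FPKM with enalapril. With MK-8722 they were 7.98 and 80.7 FPKM at 1 mpk and 7.28 and 97.7 FPKM at 10 mpk, where medulla ranged from 19.5 to 183 FPKM.

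**Figure D5:**
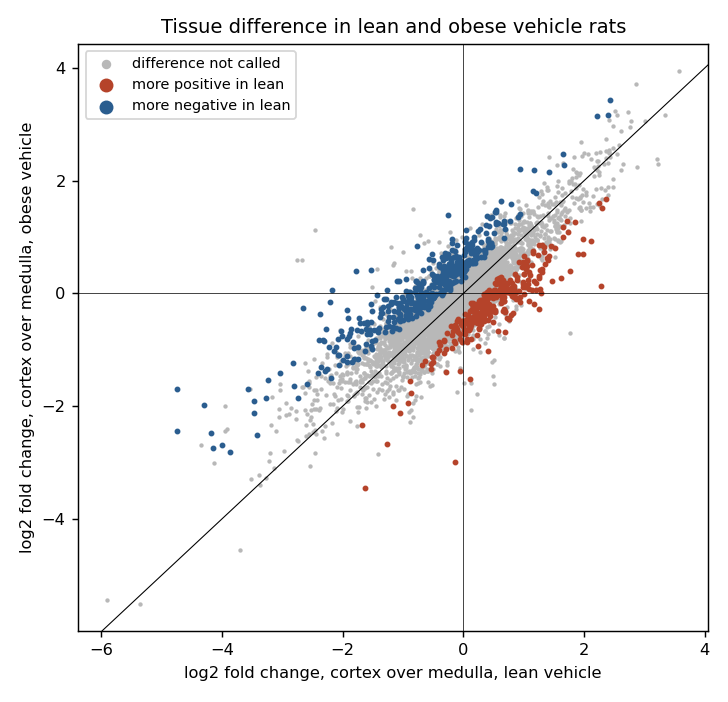
Each point is 1 of 12271 genes tested in both genotypes, with the log2 fold change of cortex over medulla in lean vehicle rats on the x axis and in obese vehicle rats on the y axis; the diagonal marks equal values. Colours mark the genes of this plot whose difference between the genotypes was called, 303 more positive and 445 more negative in lean.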

How the data were processed

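RNA was profiled in 50 kidney libraries, and 10 of them, lean vehicle cortex and medulla (n = 5 each), enter the main comparison. Per the labels' protocols, total RNA was sequenced after ribosomal RNA removal with a stranded kit. The authors deposited FPKM values in a table with 32545 rows of Ensembl IDs; the unit is stated in the name of the deposited table and not in its header. Aligner, counting tool and genome build: not given in the sources used here. Columns were matched to samples by the library number in the description. The absolute depth is unknown. Relative depth came from the spacing of low values. Of 19340 values in 4413 genes, 80.9% were whole multiples to within 0.1 reads, where evenly spread values would give 20%.

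R 4.3.3 with limma 3.58.1 (mean-variance trend, robust moderation) was fitted to log2(FPKM + 0.5), with the 2 groups alone for the tissue comparison and the 4 vehicle groups for the interaction. Rescaling divided each library by its median ratio. The procedures were tested on simulated data. IDs were named by size of the log2 fold change, at most 2 in each direction of a comparison, with at least 5 FPKM in the highest group and calls on both scales. In the lean comparison the rule also asked for no overlap between the tissues. The rule was extended to the interaction, for genes tested in both genotypes, after values were seen. The 35 gene lists could not be run without names. Members, rule and lists were chosen with earlier results of these data known. The labels do not say that libraries of a group came from separate animals, so the p-values rest on a spread that may be technical.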

Additional observations from a re-analysis of the deposited data

Results flagged for a closer look

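Single libraries far from the other 4 of their group were looked for in 36 groups of values, where chance marks about 1 in 20. ENSRNOG00000057928 had 4.77 FPKM in lean cortex replicate 2, against at most 1.05 FPKM in the other lean cortex libraries. ENSRNOG00000012181 had 8.17 FPKM in lean cortex replicate 6, against at most 7.18 FPKM in the others. The relative depth of lean medulla replicate 1 was 0.960, below 1.10 to 1.15 in the other lean medulla libraries. The 753 genes at least 2-fold higher in medulla took 7.98% of the summed FPKM outside the 6 most abundant IDs in lean medulla replicate 7, against at least 8.75% in the other lean medulla libraries.

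The tissue difference differed between lean and obese vehicle rats for 845 genes by the interaction test. The difference, lean minus obese vehicle, was 2.85 for ENSRNOG00000008979 and 2.14 for ENSRNOG00000010635 on the log2 scale. It was -3.05 for ENSRNOG00000057928 and -2.39 for ENSRNOG00000012181.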

How the results depend on the processing

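No named ID changed the sign of its log2 value under the alternatives run, and 198 of the 200 values kept their side of the threshold. With 1 library left out in turn, lean calls numbered 5775 to 6398, interaction calls 610 to 1108 and obese vehicle calls 4174 to 6013, all within 1.5 times of the full counts of 6408, 845 and 5395. The balance of directions did turn. Rescaling moved the lean split of 1896 higher and 4512 lower in cortex to 2902 and 2828, and the obese vehicle split of 1469 and 3926 to 2626 and 2440. It sets the median near 0, so near even splits are partly built in. Without obese vehicle cortex replicate 2 the interaction split of 353 more positive and 492 more negative in lean became 443 and 397. Relative depth as a term left 2714 lean calls, 876 higher and 1838 lower; depth did not overlap between the lean tissues. In the lower range of library numbers the interaction had 481 calls, 163 more positive and 318 more negative in lean. There ENSRNOG00000057928 missed the threshold (log2 difference -2.88, adjusted p = 0.0587), as it did with a pseudocount of 0.1 (-2.94, adjusted p = 0.171).

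Same-numbered lean cortex and medulla libraries (4 pairs) deviated together with r of -0.00236 to 0.116 across genes. The 3 obese vehicle pairs did so with r of 0.0893 to 0.262. The closest medulla library bore the same number for lean cortex replicates 1 and 3 and obese vehicle cortex replicates 3 and 5. It bore another number for lean cortex replicates 6 and 7 and obese vehicle cortex replicate 6. Whether the numbers mark shared animals was not settled, and the main fits did not treat them as a pairing. Replicate number as a block gave 5582 lean calls, against 5756 in the same 8 libraries without it. The block with rescaling gave 2499 genes higher and 2427 lower in lean cortex. The interaction with the block, over fewer libraries, had 472 calls, 236 in each direction. At least 4-fold lean differences became 107 and 269 with the pseudocount of 0.1. The unknown absolute depth limits what can be said of genes near 0 FPKM.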
